A study of Saccharomyces cerevisiae with 5 samples.

Results

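The 10 genes described here encode the enzymes that make isoleucine, valine and leucine in budding yeast, Saccharomyces cerevisiae: ILV1, ILV2, ILV3, ILV5, ILV6, LEU1, LEU2, LEU4, LEU9 and BAT1. They were taken by name from the 6205 open reading frames (ORFs) with a spot on the arrays, and all 10 were found and had a value on all 5 arrays. Cells grown overnight in YP, a rich medium, containing 2% glucose were diluted to an OD600 of 0.1 into YP holding either 2% or 20% glucose and collected 1 hour later. The study asked how transcription responds to the high glucose concentration. Total RNA of both media was labelled with Cy5 and Cy3 and hybridised together on each of 5 two-colour arrays, with 20% glucose in Cy3 on arrays 1, 3 and 4 and in Cy5 on arrays 2 and 5, per the labels. The labels name no strain or genotype, and both media differ only in glucose. They also do not say whether arrays come from separate cultures, so the p-values measure the spread between arrays, which may be technical.

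Isoleucine and valine are made in mitochondria by a shared set of enzymes. Threonine deaminase (Ilv1) starts the isoleucine branch, and acetolactate synthase (catalytic subunit Ilv2, regulatory subunit Ilv6), the reductoisomerase Ilv5 and the dihydroxyacid dehydratase Ilv3 act in both branches. Leucine synthesis leaves the valine branch through the isopropylmalate synthases Leu4 and Leu9, followed by the isomerase Leu1 and the dehydrogenase Leu2 in the cytosol, and the transaminases Bat1 (mitochondrial) and Bat2 (cytosolic) finish all 3 amino acids. Many of these genes are known targets of the activator Gcn4, which responds to amino acid starvation, and of Leu3, which senses the leucine precursor isopropylmalate.

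Each value below is a log2 ratio, with RNA labelled 20% glucose as numerator and RNA labelled 2% glucose as denominator. The sign rests on the dye labels alone. By those labels GPD1, the glycerol 3-phosphate dehydrogenase known to be induced by high osmolarity, was lower on 5 of 5 arrays. Its estimate was -3.96 ± 0.97 (SE, limma, adjusted p = 0.0733). Its values were -2.02, -1.78 and -2.42 on arrays 1 to 3 and -6.88 and -6.51 on arrays 4 and 5. With a term separating arrays 4 and 5 from the others, GPD1 was at -4.35 ± 0.08 (limma adjusted p = 2.8e-05). HXT1, the glucose transporter known to be induced by high glucose, was at -2.54 ± 0.26 (limma adjusted p = 0.0294) and also lower on 5 of 5. Both run against their known direction. Should those labels be exchanged, all signs given here turn. For arrays 1 to 3, whose ratios could not be set against scanner values, the direction was taken to be that of arrays 4 and 5.

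Of the 10 genes, 1 passed the test over 5 arrays, ILV6, as higher under the 20% label, and that call ended when any 1 array was left out. Most calls ended there: between 0 and 103 of all ORFs were called with 1 array left out, beside 201 over 5 arrays. The median of the 10 genes was -0.00135 on array 1, 0.54 on array 2, 0.22 on array 3, 0.82 on array 4 and 1.00 on array 5, while the median of all ORFs lay between -0.01 and 0.00 on each. On array 1, 5 of the 10 genes were above 0, on array 2 9, on array 3 8, on array 4 9 and on array 5 10, beside between 48.6% and 49.7% of all ORFs on each array. In the fit over 5 arrays with a dye term, 9 of 10 estimates were above 0, with a median of 0.58 beside 0.00 for the 5447 ORFs tested. Only ILV6 passed the adjusted p threshold of 0.05 in that fit, as higher, beside 2.24% of all ORFs called higher, 1.45% lower and 3.69% in either direction. A further 7 had an unadjusted p under 0.05, as did 28.5% of all ORFs. The remaining 2, ILV5 and LEU9, had estimates near 0. Above 0 on all 5 arrays were 5 genes (ILV1, ILV2, ILV3, ILV6 and LEU4), beside 16.7% of the ORFs with 5 values.

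**Figure D1:**
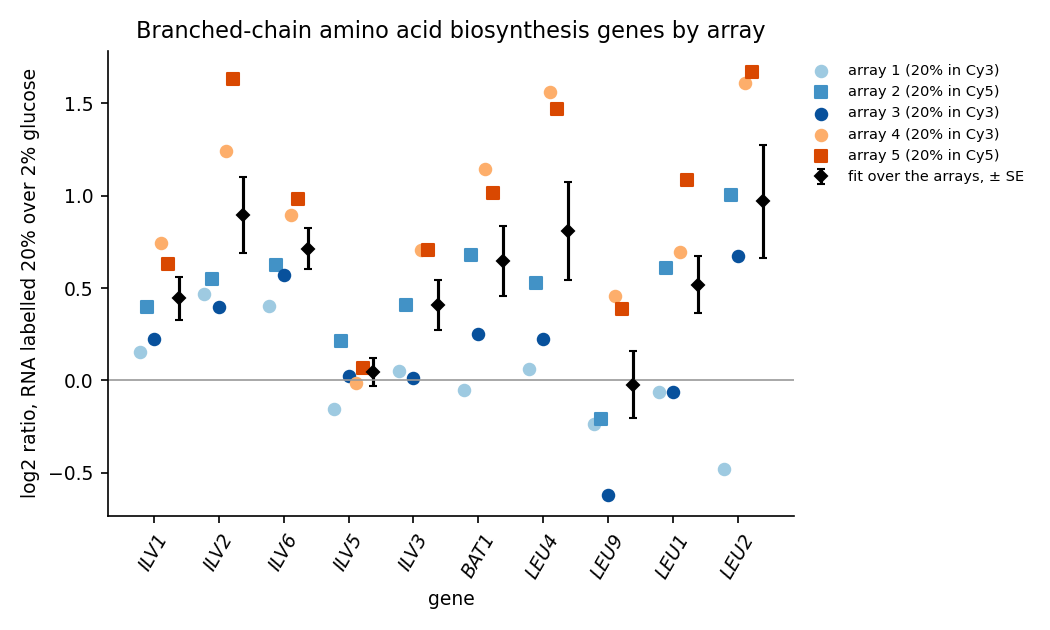
Log2 ratio of 20% over 2% label (vertical axis) for the 10 genes (horizontal axis) on each of 5 arrays. Circles are arrays with 20% glucose in Cy3 and squares those with it in Cy5, blue is arrays 1 to 3 and orange arrays 4 and 5, and black diamonds with bars are the fit over all arrays ± SE. Arrays 4 and 5 lie above arrays 1 to 3 for 9 of 10 genes, with ILV5 the exception.

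ILV1 (YER086W, chromosome V), the threonine deaminase, was at 0.15, 0.40, 0.23, 0.75 and 0.63 on arrays 1 to 5. It was higher under the 20% label on every array, with both values of arrays 4 and 5 above those of arrays 1 to 3. Its estimate of 0.44 ± 0.12 (1.36-fold) did not pass (limma adjusted p = 0.0835).

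ILV2 (YMR108W, chromosome XIII), the catalytic subunit of acetolactate synthase, was at 0.47, 0.55, 0.40, 1.24 and 1.63. Its values on arrays 1 to 3 had a narrow spread around 0.47 (SD 0.07, n = 3), and those of arrays 4 and 5 averaged 1.44 (2.71-fold). Over the 5 arrays it was at 0.90 ± 0.21 (limma adjusted p = 0.0662). ILV6 (YCL009C, chromosome III), the regulatory subunit of the same enzyme, was at 0.40, 0.62, 0.57, 0.90 and 0.98. It was higher on 5 of 5 arrays and the fit gave 0.71 ± 0.11, a 1.64-fold higher level under the 20% label (limma adjusted p = 0.043). That call ended when any 1 array was left out (limma adjusted p from 0.0562 to 0.185), with estimates between 0.62 and 0.80. In those fits between 0 and 103 of all ORFs were called, beside 201 over 5 arrays. Fitted alone, arrays 1 to 3 (0.56, limma adjusted p = 0.0171) and arrays 4 and 5 (0.94, limma adjusted p = 0.00102) each gave ILV6 as higher.

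ILV5 (YLR355C, chromosome XII), the acetohydroxyacid reductoisomerase, was at -0.16, 0.21, 0.02, -0.01 and 0.07. It lay on both sides of 0 and its array sets overlapped, unlike those of the other 9 genes. Its estimate was 0.05 ± 0.08 (limma adjusted p = 0.739). ILV3 (YJR016C, chromosome X), the dehydratase of the next step, was at 0.05, 0.41, 0.02, 0.71 and 0.71. It was near 0 on arrays 1 and 3 and higher on the other 3, with an estimate of 0.41 ± 0.13 (limma adjusted p = 0.123). BAT1 (YHR208W, chromosome VIII), the mitochondrial transaminase, was at -0.05, 0.68, 0.25, 1.15 and 1.02, and at 0.65 ± 0.19 over the arrays (limma adjusted p = 0.0982). On array 1 alone BAT1 was below 0.

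The leucine branch opens with 2 isopropylmalate synthases. LEU4 (YNL104C, chromosome XIV), which encodes the main one, was at 0.06, 0.53, 0.22, 1.56 and 1.47, higher on 5 of 5 arrays. Its estimate of 0.81 ± 0.27 had a limma adjusted p of 0.123. LEU9 (YOR108W, chromosome XV), which encodes its paralog, was at -0.23, -0.21, -0.62, 0.46 and 0.39. It was below 0 on each of arrays 1 to 3 and above 0 on arrays 4 and 5, and its estimate of -0.02 ± 0.18 (limma adjusted p = 0.952) lies between these opposite shifts.

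LEU1 (YGL009C, chromosome VII), the isopropylmalate isomerase, was at -0.06, 0.61, -0.06, 0.70 and 1.09. The values on arrays 1 and 3 were just below 0, and that on array 2 was closer to those of arrays 4 and 5. Among arrays 1 to 3, all 10 genes were highest on array 2, the only one of these with 20% glucose in Cy5. The share of all ORFs highest on array 2 was not counted, and a dye effect cannot be told apart here. The estimate was 0.52 ± 0.15 (limma adjusted p = 0.101). LEU2 (YCL018W, chromosome III), the isopropylmalate dehydrogenase, had the widest range of the 10 genes, at -0.48, 1.01, 0.67, 1.61 and 1.67. It was lower under the 20% label on array 1 and higher on the other 4. Its estimate was the highest of the 10 genes, 0.97 ± 0.31 (1.96-fold), without passing (limma adjusted p = 0.113).

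LEU2 is deleted in many laboratory strains, so its spot was checked on arrays 4 and 5, whose scanner files were used here. Under the 20% label the LEU2 spot was 37.5 times its local background on array 4 and 53.0 times on array 5, and under the 2% label 18.2 and 12.4 times. These spots were well above background in both channels. Over all 10 genes the spots were between 12.4 and 365 times background, so no ratio on these arrays rests on a dim spot. The spot of HIS3, another common marker gene, was between 3.48 and 6.21 times background, and that of TRP1 between 3.95 and 9.32 times. The remaining marker genes checked, URA3, LYS2, ADE2 and MET17, were between 8.82 and 93.4 times background.

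Arrays 1 to 3 and arrays 4 and 5 formed separate sets. Across ORFs, which are not independent of each other, Pearson's r was 0.951 between arrays 4 and 5, between 0.597 and 0.861 within arrays 1 to 3, and between 0.256 and 0.374 across the sets. For 9 of the 10 genes both values of arrays 4 and 5 lay above all 3 of arrays 1 to 3, as did 30.2% of the 4693 ORFs with 5 values. A term for the set in the limma fit gave a difference for 4 genes, all with a higher ratio on arrays 4 and 5, beside 6.61% of all ORFs called that way, 6.17% called the other way and 12.8% in either. LEU4 differed by 1.22 ± 0.16 (limma adjusted p = 0.012), from 0.27 ± 0.24 (SD, n = 3) on arrays 1 to 3 to 1.52 ± 0.06 (SD, n = 2) on arrays 4 and 5. ILV2 differed by 0.93 ± 0.14 (limma adjusted p = 0.0154) and LEU1 by 0.64 ± 0.14 (limma adjusted p = 0.0363).

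LEU9 changed sign between the sets, from -0.35 ± 0.23 (SD, n = 3) to 0.42 ± 0.05 (SD, n = 2), with a difference of 0.76 ± 0.17 (limma adjusted p = 0.0428). The difference for LEU2 was 1.15 ± 0.38, with a wider error than that of LEU4, and did not pass (limma adjusted p = 0.101). For ILV5 it was -0.03 ± 0.14 (limma adjusted p = 0.906). These calls rest on few arrays. Without array 1, 9 of the 10 genes differed between the sets in limma, beside 2225 of 4751 ORFs. Without array 2 only LEU4 did, beside 167 of 4902 ORFs. Without array 3, 5 genes did, beside 820 of 4784 ORFs. Without array 4 or 5, their set holds only 1 array, so no count is given.

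**Figure D2:**
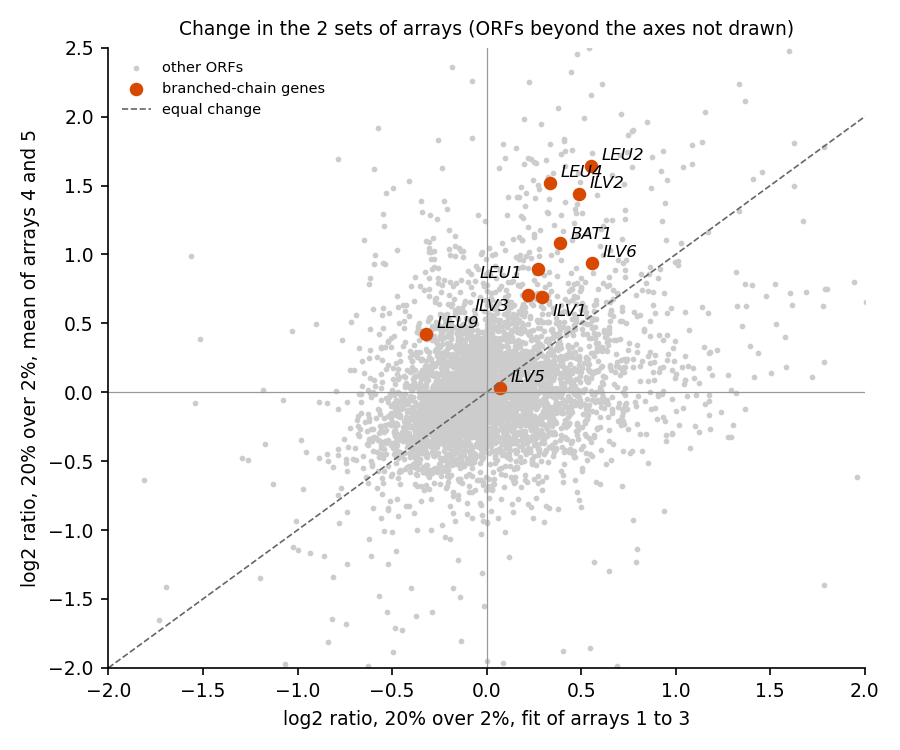
Each point is an ORF, with its log2 ratio (20% over 2% label) fitted on arrays 1 to 3 on the horizontal axis and its mean on arrays 4 and 5 on the vertical axis. Of the 10 genes (orange), 8 lie in the upper right above the dashed line of equal change, LEU9 lies at the upper left (-0.32 and 0.42) and ILV5 near the origin.

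Fitted alone, as a plain mean without a dye term, arrays 4 and 5 called 9 of the 10 genes higher, all but ILV5, beside 27.9% of the 5371 ORFs tested called higher, 26.6% lower and 54.4% in either direction. LEU2 (1.64), LEU4 (1.52), ILV2 (1.44), BAT1 (1.08), ILV6 (0.94), LEU1 (0.89), ILV3 (0.71), ILV1 (0.69) and LEU9 (0.42) had limma adjusted p between 0.000333 and 0.00587. Arrays 1 to 3, fitted with a dye term, called 2 of 10 higher, ILV2 (0.49, limma adjusted p = 0.0281) and ILV6, beside 11.5% of 5164 ORFs called higher, 5.96% lower and 17.4% in either direction. With the set as a term over all 5 arrays, 8 of 10 passed as higher, and LEU9 (0.04) and ILV5 (0.04) did not. In that fit 16.4% of all ORFs were called higher, 13.3% lower and 29.7% in either direction. Without a dye or set term 3 of 10 passed as higher (ILV1, ILV2 and ILV6), beside 8.5% of all ORFs called higher, 8.37% lower and 16.9% in either direction. The within-set fits have 1 residual degree of freedom per gene, lean on the spread shared over genes and differ in the dye term, so their counts are not compared with each other. The labels do not say whether arrays 4 and 5, which carry opposite dyes, share the same RNA.

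Pairs of genes for the same step were compared within each array, where the difference of 2 log2 ratios does not depend on the centring of the array. It can still depend on other normalization. The table's ratio minus the scanner's was -0.54 for BAT1 and 0.03 for BAT2 on array 5, and -0.18 and 0.01 on array 4. The 4 pairs were chosen after their values were seen. With 5 arrays the exact two-sided sign-flip test cannot go below p = 0.0625. LEU4 exceeded LEU9 by 0.30, 0.74, 0.84, 1.10 and 1.09 on arrays 1 to 5, a mean of 0.81 ± 0.33 (SD, n = 5, exact p = 0.0625, adjusted over 4 pairs 0.125). LEU4 was the higher one of the paralogs on 5 of 5 arrays, while the sign of LEU9 itself depended on the set.

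ILV1 exceeded CHA1, the threonine deaminase of threonine breakdown, by between 0.94 and 1.98, with a mean of 1.41 ± 0.49 (SD, n = 5, exact p = 0.0625, adjusted 0.125). The mitochondrial BAT1 minus the cytosolic BAT2 was -0.88, 0.22, -0.50, 0.74 and 0.62. BAT2 was the higher one on arrays 1 and 3 and BAT1 on the other 3, and the mean of 0.04 ± 0.71 (SD, n = 5) was within the spread (exact p = 0.938). ILV2 minus ILV6, the subunits of 1 enzyme, had a mean of 0.16 ± 0.34 (SD, n = 5, exact p = 0.438), with ILV2 higher by 0.35 and 0.65 on arrays 4 and 5.

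**Figure D3:**
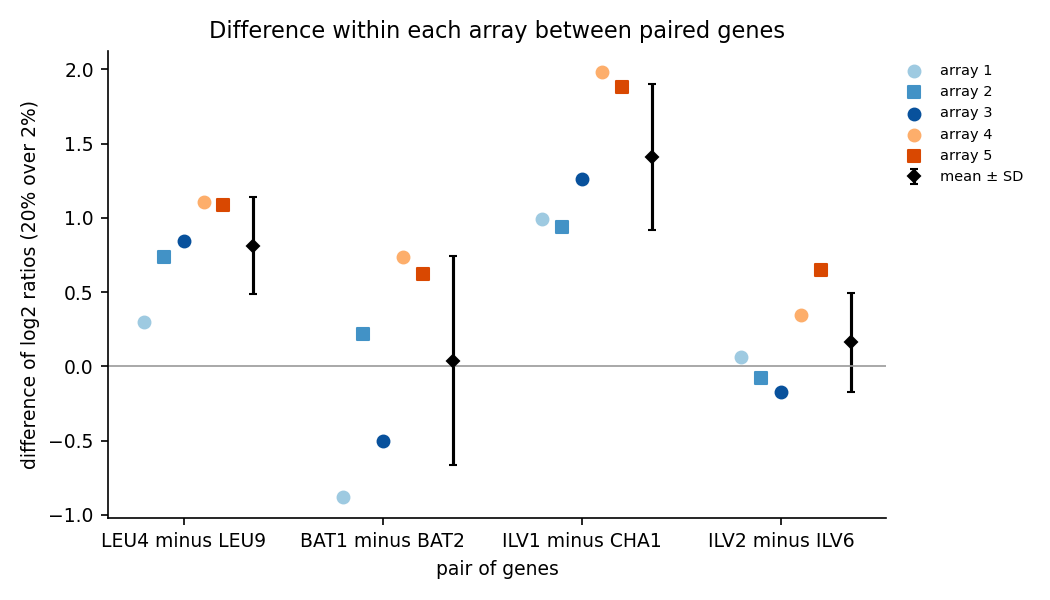
Difference within each array of the log2 ratios (20% over 2% label) of paired genes (vertical axis) for 4 pairs (horizontal axis). Points are arrays, coloured and shaped as in the plot of the 10 genes, and black diamonds are means ± SD (n = 5). LEU4 minus LEU9 and ILV1 minus CHA1 are above 0 on 5 of 5 arrays, and BAT1 minus BAT2 lies on both sides of 0.

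A list of 18 further genes holds the regulators, carriers, permeases and neighbouring enzymes of the pathway. In the fit over 5 arrays 2 were higher, 1 was lower and 15 did not pass, beside 2.24% of all ORFs higher and 1.45% lower, and the list's median was 0.09. The 2 higher ones were BAT2 and HOM3 (0.79 ± 0.13, limma adjusted p = 0.043), the aspartate kinase that opens the route to threonine, the precursor of isoleucine. BAT2 was at 0.82, 0.46, 0.76, 0.41 and 0.39, with arrays 1 to 3 above arrays 4 and 5, the reverse of BAT1. The difference between the sets passed for neither, at -0.25 ± 0.14 for BAT2 and 0.74 ± 0.21 for BAT1 (limma adjusted p = 0.284 and 0.0741). Over 5 arrays the estimate of BAT2 was 0.55 ± 0.09 (limma adjusted p = 0.044).

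CHA1 was the lower one, at -0.84, -0.54, -1.04, -1.24 and -1.25. It was below 0 on 5 of 5 arrays and 1.95-fold lower under the 20% label (-0.97 ± 0.13, limma adjusted p = 0.0417). Like the call of ILV6, those of CHA1 and HOM3 ended when any 1 array was left out, where between 0 and 103 of all ORFs were called. The call of HOM3 also ended with the deposited values of 10 or more left out (limma adjusted p = 0.0743). That of BAT2 ended without array 1, 2, 3 or 5. That of BAT2 also ended with scanner ratios for arrays 4 and 5 (limma adjusted p = 0.0563). HOM2, the next enzyme after Hom3, was at 1.02 ± 0.22 (limma adjusted p = 0.0605), while HOM6 (0.19), THR1 (-0.04) and THR4 (0.03) had limma adjusted p of 0.368, 0.821 and 0.804.

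None of the 3 regulators in the list passed over 5 arrays, and no difference between them was tested. GCN4, the transcription factor of the general amino acid control, was at 0.16, 0.74, 0.59, 1.03 and 0.87, higher on 5 of 5 arrays, with an estimate of 0.70 ± 0.14 just outside the threshold (limma adjusted p = 0.055). Gcn4 is known to be controlled mainly through its translation, which these arrays do not measure. LEU3 was at -0.48, -0.08, -0.26, 0.13 and 0.13, below 0 on arrays 1 to 3 and above 0 on arrays 4 and 5, with an estimate of -0.09 ± 0.11 (limma adjusted p = 0.643). GCN2, the kinase that acts upstream of Gcn4 when uncharged tRNA builds up, was at 0.06, -0.02, -0.09, 0.53 and 0.21, with an estimate of 0.13 ± 0.12 (limma adjusted p = 0.503).

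Other genes that Leu3 is known to activate were in the list as well. OAC1, the mitochondrial carrier that exports isopropylmalate, was at 0.09, 0.35, -0.13, 0.86 and 0.94, and GDH1, the glutamate dehydrogenase, at -0.08, 0.46, 0.05, 1.60 and 1.80. Neither passed over 5 arrays (limma adjusted p = 0.161 and 0.164), and both differed between the sets, OAC1 by 0.76 ± 0.15 (limma adjusted p = 0.0309) and GDH1 by 1.498 ± 0.14 (limma adjusted p = 0.00524). The list held 2 further genes that differed between the sets, beside 12.8% of all ORFs. Of all ORFs, 6.61% were called higher on arrays 4 and 5 and 6.17% lower. HOM2 was higher on arrays 4 and 5 by 0.94 ± 0.20 (limma adjusted p = 0.0341), and MMF1, a mitochondrial protein, was the 1 that ran the other way (-0.83 ± 0.14, limma adjusted p = 0.0221). BAP2, the branched-chain amino acid permease, stayed between -0.12 and 0.09 on all arrays, with an estimate of -0.01 ± 0.08 (limma adjusted p = 0.942).

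**Figure D4:**
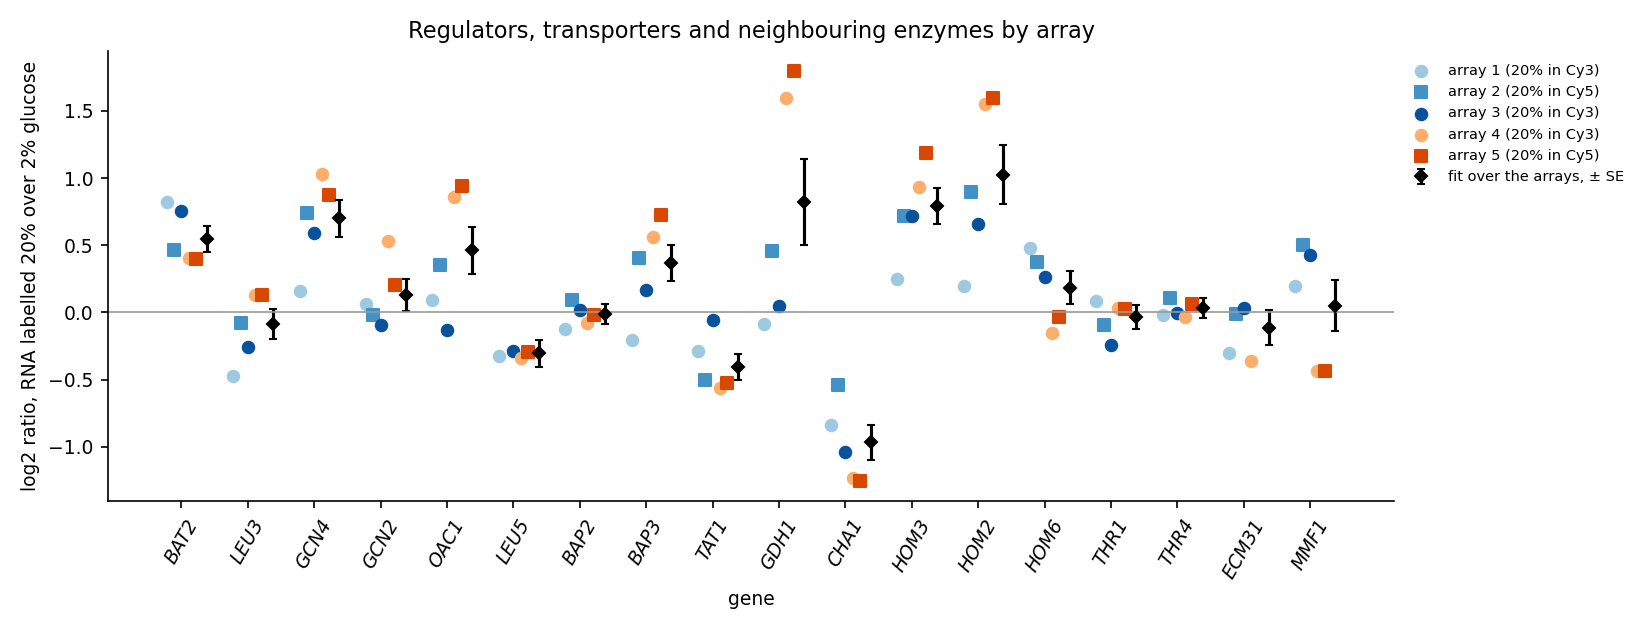
Log2 ratio of 20% over 2% label (vertical axis) for 18 regulators, transporters and neighbouring enzymes (horizontal axis), with symbols as in the plot of the 10 genes. CHA1 and TAT1 are below 0 and BAT2, GCN4, HOM3 and HOM2 are above 0 on 5 of 5 arrays. The values of arrays 4 and 5 overlap those of arrays 1 to 3 for LEU5, BAP2, THR1 and THR4. For all other genes drawn they lie apart, ECM31 with only 1 value on arrays 4 and 5.

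Other amino acid pathways are given side by side, with no test between them. In the same fit the median of 7 histidine genes was 0.62 with 2 higher, that of 9 arginine genes 0.92 with 1 higher, and that of 9 lysine genes 0.17 with 0 called in limma, beside 2.24% of all ORFs called higher and 1.45% lower. At an unadjusted p under 0.05 were 4 lysine genes, LYS1 (0.63) and LYS2 (0.47) above 0 and LYS5 (-0.26) and LYS20 (-0.38) below, beside 28.5% of all ORFs. So were 6 of the 7 histidine genes, HIS6 (-0.49) alone below 0, and 6 of the 9 arginine genes, all above 0. The fitted difference of arrays 4 and 5 minus arrays 1 to 3 had a median of 0.69 for the 10 genes. It was 0.68 for the histidine, 1.37 for the arginine and 0.52 for the lysine genes, beside 0.01 for all ORFs. By root mean square difference over the 5 arrays, the other genes closest to the median profile of the 10 genes were, on the log2 scale, ACT1 (actin, 0.0844), SAM1 (S-adenosylmethionine synthetase, 0.105), HIS7 (histidine synthesis, 0.109), COX9 (cytochrome c oxidase, 0.109) and LYS2 (lysine synthesis, 0.115), among 4667 ORFs compared. ACT1, an abundant transcript often used as a reference, was at 0.14, 0.59, 0.18, 0.77 and 0.91.

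Markers of stationary phase cells, which an overnight culture can carry over, were more often higher than lower on arrays 4 and 5 relative to arrays 1 to 3. The fitted difference had a median of 1.06 over those tested, beside 0.01 for all ORFs. Of 10 such genes 7 could be tested. Over 5 arrays 0 were higher in limma and 1 was lower, FMP45 (-0.84 ± 0.10, limma adjusted p = 0.0422), beside 2.24% of all ORFs higher and 1.45% lower. The others at an unadjusted p under 0.05 were HSP26 (0.84) and XBP1 (0.74), beside 28.5% of all ORFs. Between the sets 4 of 7 passed, all higher on arrays 4 and 5, beside 6.61% of all ORFs: SNO1 (2.33), HSP26 (1.43), SNZ1 (1.31) and SSA3 (1.06). XBP1 (-0.55) and SPG5 (-0.65) were lower there without passing (limma adjusted p = 0.319 and 0.245), and FMP45 was at 0.01. The median of those with a value, which are not the same genes on each array (8, 7, 9, 9 and 7 genes), was -0.20 on array 1, 0.17 on array 2, 0.18 on array 3, 0.59 on array 4 and 0.68 on array 5. Their part in the change of the 10 genes was not tested.

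Most of the 10 genes had bright spots: 7 on array 4 and 6 on array 5 were among the brightest 10% of all spots. For these brightest spots the table's ratio (20% over 2% label) minus the scanner's had a median of -0.25 on array 5 and -0.02 on array 4. On array 5 ILV5 had a scanner ratio of 0.69 and a table ratio of 0.07, BAT1 1.56 and 1.02, and ILV3 1.11 and 0.71. In the scanner ratios all 10 genes were above 0 on both arrays, ILV5 at 0.12 on array 4 included. The share of all ORFs, or of other bright spots, above 0 in the scanner ratios was not counted. This count is therefore not read as particular to the 10 genes. With scanner ratios for arrays 4 and 5 the fit over 5 arrays called 1 of 10, ILV6, and the median was 0.66.

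**Figure D5:**
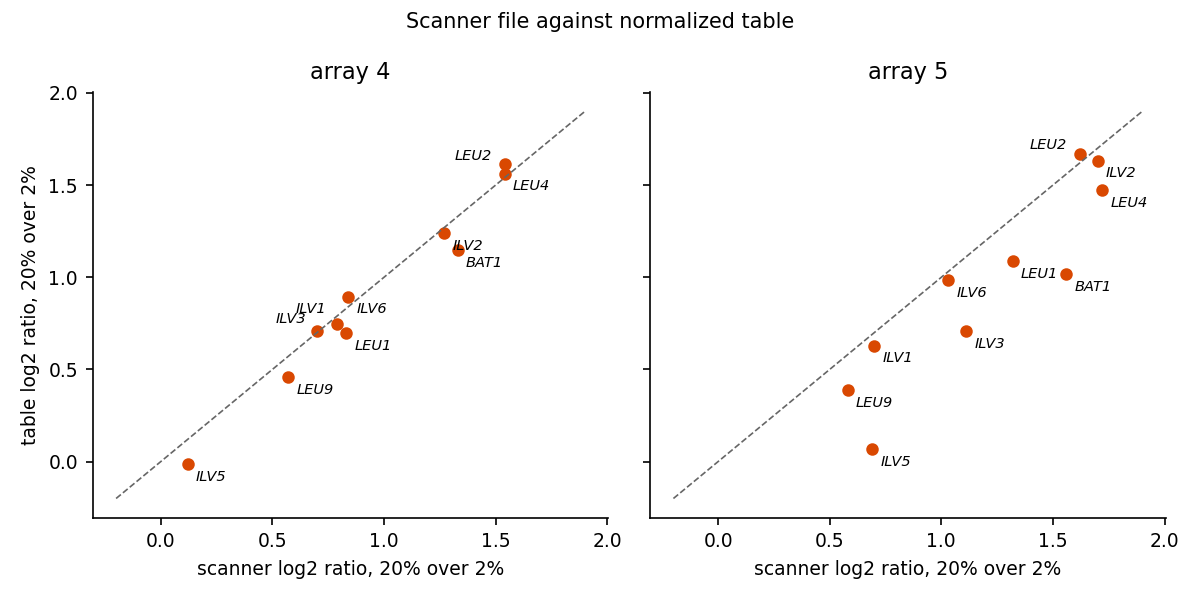
Log2 ratio (20% over 2% label) of the 10 genes in the scanner file (horizontal axis) and in the normalized table (vertical axis) on arrays 4 and 5, with the dashed line marking equal values. On array 5, 9 of 10 genes lie below the line, ILV5 and BAT1 farthest (-0.62 and -0.54), and on array 4 the largest gap is -0.18.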

How the data were processed

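The authors' deposited table holds log2 ratios of both channels, with a median near 0 on every array. Their software: not given in the sources used here. Scanner files deposited for arrays 4 and 5 give, per the file headers, the median intensity of each spot and its background and log2 ratios of Cy5 over Cy3. Their spot flags are, per the file headers, a further column (another score per spot), below 0 where a spot was marked. None was used for arrays 1 to 3.

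On arrays 4 and 5 the table's 258 and 262 values of 10 or more in size were divided by 10: values of 1 or more that need 4 decimals are written 10 times too large there, and those between 1 and 10 (34 and 31) have at most 3 decimals. The correlation with the scanner ratios was then 0.991 and -0.964, so that the labels' dyes make both columns 2% over 20% glucose. Every value was turned in sign; scale and direction of arrays 1 to 3 were taken to be the same.

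Spots of 1 ORF were averaged. ORFs with at least 4 values and both dye orientations were fitted with limma 3.58.1 in R 4.3.3 (lmFit, eBayes; dye term, except arrays 4 and 5 alone, fitted as a mean), two-sided, with Benjamini-Hochberg adjustment over all ORFs tested and a threshold of 0.05. Fits were tested on simulated data. Names come from a RefSeq table (R64), which matched 5705 of 6205 ORFs; 9 of the 10 genes also carry their symbol in the scanner files, LEU9 only its ORF name. No position is printed, since the files name no build. The members and lists were chosen with earlier results of these data known. Named genes are all 10 members, 6 fixed pathway genes plus those past the threshold, and the 5 closest profiles; GCN2, MMF1, HOM2, HOM6, THR1, THR4 and single lysine and stationary phase genes were named after their values were seen. The number of arrays limits the precision. Spots may not separate paralogs such as LEU4 and LEU9, or overlapping genes.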

Additional observations from a re-analysis of the deposited data

Results flagged for a closer look

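A difference between arrays 1 to 3 and arrays 4 and 5 passed the threshold in limma for 4 of the 10 genes and for 12.8% of all ORFs, GDH1, OAC1, HOM2, MMF1 and GPD1 among them. The ratio (20% over 2% label) on arrays 4 and 5 minus that on arrays 1 to 3 was 1.22 for LEU4, 0.93 for ILV2, 0.76 for LEU9, 0.64 for LEU1, 1.498 for GDH1 and 0.76 for OAC1, on the log2 scale. It was 0.94 for HOM2 (limma adjusted p = 0.0341), -0.83 for MMF1 (limma adjusted p = 0.0221) and -4.69 for GPD1 (limma adjusted p = 0.00102). The split follows which arrays had scanner files used here, and no label names it as a batch. Among 20 genes with 5 values, 0 had an array that stood apart from the other 4 by Dixon's criterion. The range it uses includes the gap between the sets, so it can miss an array apart within its own set.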

How the results depend on the processing

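Each array holds both media, so every ratio already compares them in a pair within 1 array. There is only 1 group of arrays, so no further pairing was possible. The median change of the 10 genes kept its sign under all 18 alternatives, from 0.31 (arrays 1 to 3 only) to 0.92 (arrays 4 and 5 only). The count of these genes past the threshold, 1 over 5 arrays, was 0 with the values as deposited, 3 without the dye term, 8 with the array set as a term, 2 on arrays 1 to 3 and 9 on arrays 4 and 5 (no dye term). It was 0 without any 1 array (lowest and highest value both 0), where limma called between 0 and 103 of all ORFs and between 982 and 1532 had an unadjusted p under 0.05. Over all ORFs the count of 201 became 1 with the values as deposited, 129 with scanner ratios, 919 without the dye term, 1618 with the set as a term, 901 on arrays 1 to 3 and 2924 on arrays 4 and 5. The number of the 10 genes that differed between the sets was 4, beside 696 of 5447 ORFs. Without array 1, 2 or 3 it was 9, 1 and 5, beside 2225 of 4751, 167 of 4902 and 820 of 4784 ORFs. With the values as deposited it was 3, beside 326 of 5447 ORFs. It was 6 with scanner ratios, beside 856 of 5673 ORFs, and 5 without the dye term, beside 1183 of 5447. LEU9, at -0.02, was above 0 with scanner ratios (0.0451), with normexp and loess (0.0482), with the set as a term (0.0414), on arrays 4 and 5 (0.42) and without array 1 (0.0034), 2 (0.13) or 3 (0.10); leaving out 1 array gave -0.171 to 0.127. BAP2, at -0.01, was above 0 with scanner ratios (0.10), on arrays 1 to 3 (0.0201) and without array 1 (0.004) or 5 (0.0158); leaving out 1 array gave -0.0387 to 0.0158. LEU3, at -0.09, was at 0.13 on arrays 4 and 5. With the values of 10 or more left out, LEU2, LEU4 and BAT1 could not be tested. Apart from the settings with fewer arrays or genes by construction, the cause of these shifts was not tested.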
